A study of Mus musculus with 6 samples.

Results

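The genes described here are those of 2 families of adhesion receptors, the integrins and the numbered cadherins, in cells sorted from the subventricular zone of adult mice. They were found by name in the table of the whole transcriptome: symbols that begin with Itga or Itgb and a digit, Itgav, Itgal, and Cdh followed by digits only, with the endothelial gene Cdh5 left out. The name pattern found 48 of 55487 rows. Of these, 14 encode integrin alpha subunits, 9 encode beta subunits or the beta-like Itgb2l, and 22 encode cadherins. The other 3 rows, Itgb1bp1, Itgb1bp2 and Itgb3bp, carry an integrin in their name and encode proteins that bind a beta subunit, so counts are also given without them.

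The subventricular zone lies along the lateral ventricles and holds neural stem cells, their progeny and several other cell types. The animals carried the NestinCreERT2 transgene, a Cre recombinase that tamoxifen switches on and that is driven by Nestin sequence, together with a R26 EYFP reporter. Control animals (THC) had 1 floxed and 1 wild-type allele of Rb and of p130 and were p107(+/-), written Rb(F/+);p107(+/-);p130(F/+), and TKO animals were Rb(F/F);p107(-/-);p130(F/F). Both groups received tamoxifen by gavage (200 mg/kg daily, 5 days), starting at an age of 6 to 10 weeks, on a mixed C57BL/6;Sv/129 background, and were sampled 10 days after the last dose. Each of the 3 THC and 3 TKO libraries came from a pool of mice with at least 200000 YFP-expressing cells. Libraries numbered 1 belong to a batch labelled February and libraries 2 and 3 to one labelled November.

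Integrins are heterodimers of an alpha and a beta subunit that span the membrane. The alpha subunit largely sets the ligand (laminins, collagens, fibronectin and other proteins with an RGD motif, or receptors on other cells), and the beta tail binds talin and kindlins, which link the receptor to actin. Cadherins bind cadherins on the neighbouring cell in a calcium-dependent way and are anchored to actin through catenins. In the subventricular niche, stem cells meet laminin-rich vascular basement membrane through integrins such as alpha 6 beta 1 and contact ependymal and other cells through N-cadherin.

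The read totals recovered from the normalized values were 15536084 to 16961817 per library. Values are normalized counts, that is, reads divided by 1 size factor per library. Rbl1, the gene of p107, was at 520.2, 497 and 646 in THC 1 to 3 and 42.0, 18.3 and 14.5 in TKO 1 to 3. Rb1 was higher in TKO, at 1849 ± 199 in THC and 3267 ± 355 in TKO (SD, n = 3; log2 change 0.82, limma adjusted p = 0.00066), and Rbl2, the gene of p130, was at 1042 ± 202 and 939.5 ± 32.9 (-0.13, adjusted p = 0.54). The counts cover whole genes, so those of Rb1 and Rbl2 do not check whether the floxed parts were removed. The summed level of 15 markers of quiescent stem cells and astrocytes ranged from 312464 to 491916 in THC and from 275447 to 340419.5 in TKO, and that of 16 rows of neuroblast markers from 66331 to 94809.7 and from 56398 to 90404. A few abundant genes carry these sums, and single markers moved more: of the 15 stem cell and astrocyte markers 8 were lower (Aldoc by a fold of 0.196, Ntsr2 0.192, Slc7a10 0.180) and Gfap was 4.02-fold higher, and of 15 tested neuroblast markers 8 were lower and none was higher. Markers of other cells were present too: 11 oligodendrocyte genes summed to 96861 to 104823 in THC and 17574 to 28893 in TKO, and all 11 were lower. Of 12 endothelial markers 9 were lower (sums 6689.6 to 15409 and 3098 to 4238), of 10 mural markers 7 were lower (7029.9 to 11056 and 2853 to 4924), and of 16 microglia and macrophage markers 9 were higher (1309.8 to 7519.7 and 1967 to 11874). Of 10 ependymal markers 3 were lower and 1 was higher, and of 8 oligodendrocyte progenitor markers 1 was lower and 1 was higher. Over all rows tested as described below, 14.3% were higher and 13.6% were lower. In these bulk libraries fewer cells of a type and less RNA per cell cannot be told apart.

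Of the 48 rows, 38 reached a normalized count of 10 in at least 3 libraries and were tested. A row was called at a Benjamini-Hochberg adjusted p under 0.05 in limma, over all 17278 rows tested and with batch in the model. Changes are TKO over THC on the log2(normalized count + 1) scale, on which changes of low genes come out too small. The members moved in both directions. Itga5, Itga8, Cdh24 and Itgb3bp were higher in TKO, and Itga1, Itga7, Cdh10, Cdh11, Cdh19 and Cdh26 were lower. The 4 higher rows are 10.5% of the 38, beside 14.3% of all rows tested, and the 6 lower rows are 15.8%, beside 13.6%. The genotypes did not overlap for 11 of the 38 rows, or 28.9%, beside 38.9% of all rows tested. These shares are near the background or under it, so the counts as such do not set the families apart. Without the 3 binding-protein rows, 3 of 35 were higher and 6 were lower. The median change was 0.02 over the 38 members and 0.00 over all rows.

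**Figure D1:**
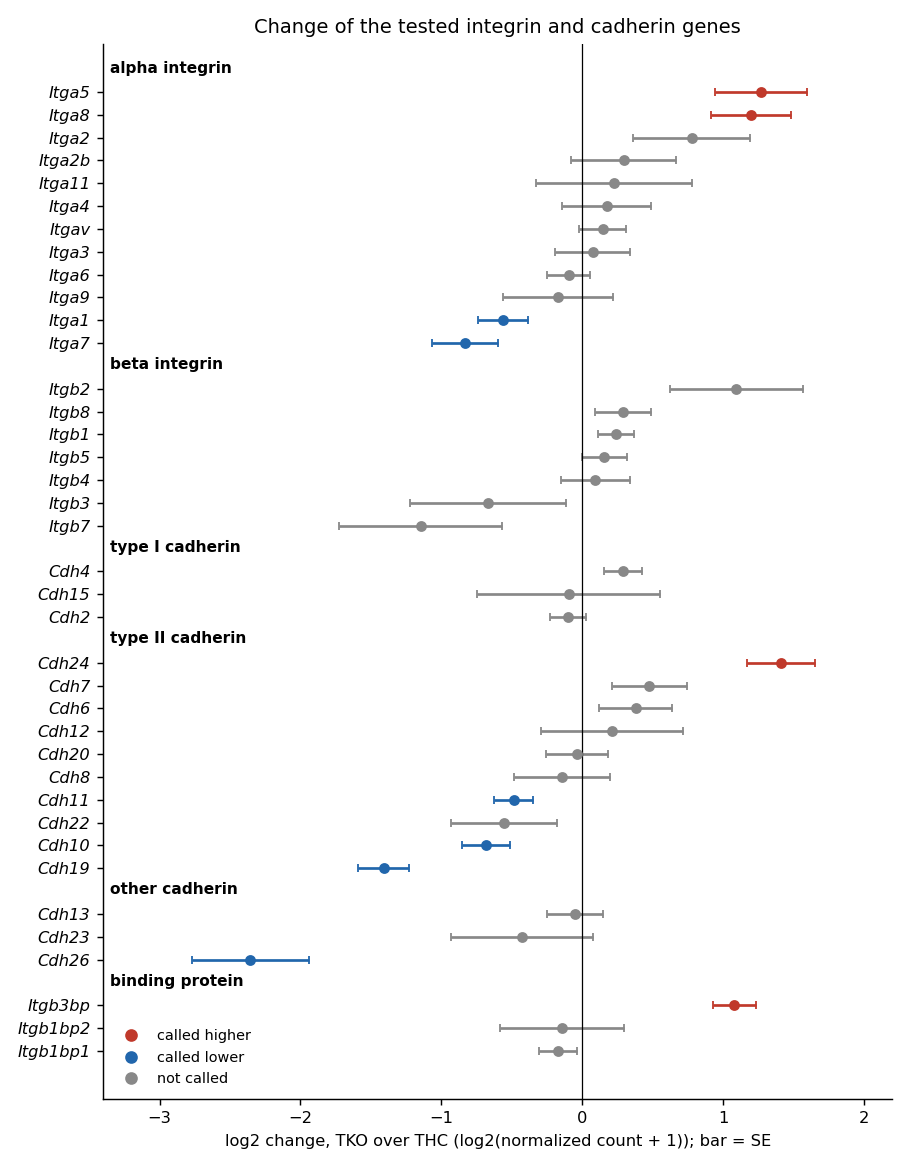
Log2 change of the 38 tested members in TKO over THC (x axis) with its SE (bar), grouped by class and ordered by size. Red points were called higher (4), blue points lower (6), and grey points were not called (28).

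Most of the abundant receptors did not pass. Of the 6 members with a mean normalized count of 1000 or more (Itgb1, Cdh2, Itgb5, Itgb8, Itgav and Cdh11), only Cdh11 was called. That is 16.7%, beside 35.0% of all 4305 rows at that level, and with 6 members the count does not set them apart. Normalized count per kb of exon gives only a rough comparison between genes. Its length takes in every annotated exon of a gene, whether or not it was expressed here. By this level Itgb1 stood first with 1300.1 ± 140.1 in THC and 1532 ± 114 in TKO (SD, n = 3). Cdh2 followed at 664 ± 135 and 613 ± 60.0, and Itgb5 at 533 ± 139 and 588 ± 133. The THC levels of Cdh2 and Itgb5 differed by less than 1 SD, so their order is not fixed. In THC the next were Cdh11 (171 ± 64.7), Itgb1bp1 (162 ± 7.20), Itgb8 (135 ± 59.1), Itgav (118 ± 64.6), Cdh19 (111 ± 40.01) and Cdh10 (102 ± 41.0), and neighbours in this order differed by less than 1 SD of the more variable one. In TKO, Itgb3bp (161 ± 29.0) and Itgb8 (155 ± 17.7) were the fourth and the fifth by mean level per kb, and Cdh19 was at 40.8 ± 9.53.

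**Figure D2:**
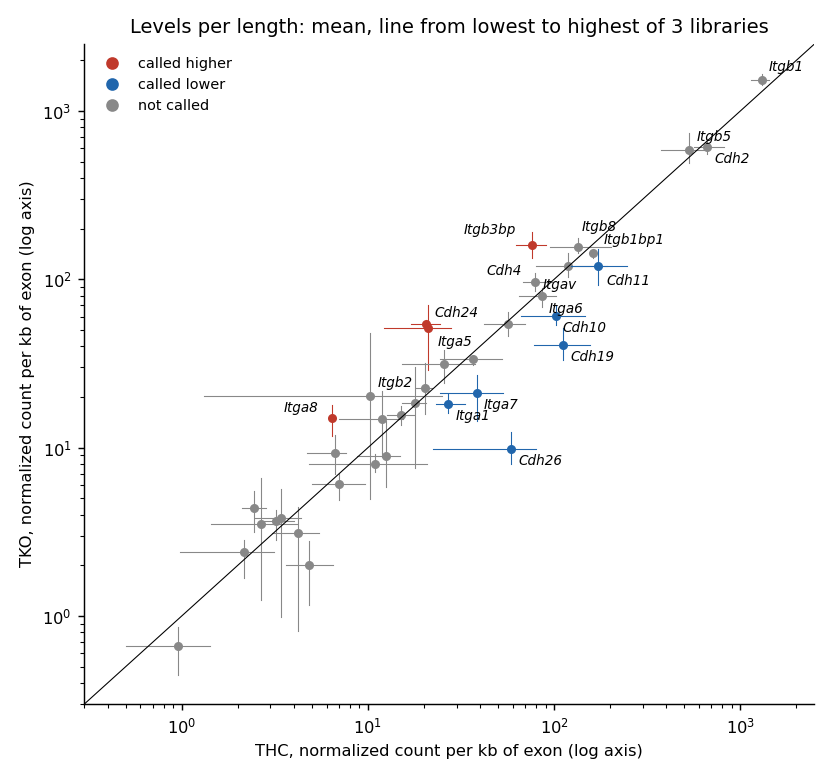
Mean normalized count per kb of exon in THC (x axis, log) and TKO (y axis, log) for the 38 tested members; lines run from the lowest to the highest of 3 libraries and the diagonal marks equal levels. Itgb1, Cdh2 and Itgb5 lie at the top on or near the diagonal, while Cdh19, Cdh26, Cdh24, Itga5, Itga8 and Itgb3bp lie off it.

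Itgb1, the beta subunit shared by most of the alpha subunits here (chromosome 8, 128685654 to 128733200, GRCm38), was at 5797, 5442 and 4678 in THC 1 to 3 and at 6767, 6126 and 5859 in TKO 1 to 3. The lowest TKO library lay just above the highest THC library. The means were 5306 ± 572 and 6251 ± 467 (SD, n = 3), and the change was 0.24 (SE 0.13, limma adjusted p = 0.20), so it did not pass. Cdh2, which encodes N-cadherin, the main cadherin of neural stem cells and ependyma (chromosome 18, 16588877 to 16809246), was at 6599.6, 4909.8 and 4558 in THC and 5459 (TKO 1), 4892 (TKO 2) and 4495 (TKO 3) in TKO. THC 1 lay above all TKO libraries and the other THC libraries lay within the TKO range, with means of 5356 ± 1092 and 4948 ± 484 and a change of -0.10 (SE 0.13, adjusted p = 0.62).

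Among the alpha subunits that recognise RGD-containing ligands, Itga5 and Itga8 rose, and Itgav and Itga2b did not pass. Itga5, the alpha subunit of the fibronectin receptor (chromosome 15, 103344286 to 103366763), was at 114, 138 and 60.6 in THC and 347, 143 and 272 in TKO. Every TKO library was above every THC library, but TKO 2 and THC 2 were almost level. The rise was 1.27 (SE 0.33, adjusted p = 0.013), or 2.40-fold, with means of 104 ± 39.6 and 254 ± 103 (SD, n = 3). The call was lost in the November libraries alone (1.10, adjusted p = 0.055), and when THC 1 (1.10, 0.053), TKO 1 (1.10, 0.059) or TKO 3 (1.05, 0.083) was left out. Itga8, which pairs with beta 1 and binds nephronectin among others (chromosome 2, 12106632 to 12301922), was at 49.1, 46.3 and 46.5 in THC and 114, 87.1 and 132 in TKO. The THC libraries were closely level, and all TKO libraries lay above them. The means were 47.3 ± 1.59 and 111 ± 22.8 (SD, n = 3). The rise was 1.196 (SE 0.28, adjusted p = 0.0078), close to that of February (1.201) and of November (1.194). Without TKO 3 it was 1.03 (adjusted p = 0.056). The kit does not keep strand, and 5.05% of the exonic bases of Itga8 are shared with the antisense gene E030013I19Rik, whose reads cannot be told apart there. Among other tested members such sharing reached 11.4% in Itgb1bp1 (with Asap2), 8.04% in Itga4, 7.66% in Itgb4 and 5.90% in Itgav.

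Itgav, the alpha subunit that pairs with beta 1, 3, 5, 6 or 8, was at 2071, 855 and 883 in THC and 1545, 1110.2 and 1229 in TKO. THC 1 was the highest library and the other THC libraries the lowest, so the genotype difference had opposite signs in February (-0.42) and November (0.43), and the means were 1269 ± 694 and 1295 ± 225. The fitted change was 0.14 (SE 0.17, adjusted p = 0.57). Itga2b, the platelet fibrinogen receptor subunit, was at 38.1 to 84.0 in THC and 48.4 to 119 in TKO (0.29, adjusted p = 0.61). Of 6 platelet and megakaryocyte markers, a list that holds Itga2b itself, 4 stayed under 10 in every library.

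Among the laminin-binding subunits, Itga7 fell, and Itga6 and Itga3 did not pass. Itga7 (chromosome 10, 128933818 to 128958282), known from muscle and glia, was at 431, 306 and 197 in THC and 219, 116 and 179.6 in TKO. The groups overlapped, since THC 3 lay below TKO 1, but within each batch the TKO libraries were the lower ones. From 311 ± 117 in THC to 171 ± 51.8 in TKO, the change was -0.83 (SE 0.23, adjusted p = 0.019). The call ended when batch was left out of the model (adjusted p = 0.082), in November alone (-0.76, 0.073), or without THC 1 (-0.76, 0.074), THC 2 (-0.67, 0.078), TKO 1 (-0.76, 0.066) or TKO 2 (-0.675, 0.082). The quiescent stem cell and astrocyte sum was highest in THC 1 (491916) and lowest in TKO 2 (275447), the libraries at the ends for Itga7 too. The mural marker sum was also lowest in TKO 2 (2853), and it was highest in THC 2 (11056). The part of these cells in the fall of Itga7 was not tested. Itga6, the laminin receptor subunit through which stem cells attach near blood vessels (chromosome 2, 71745616 to 71858416), was at 929, 806 and 588 in THC and 800.3, 615 and 730.1 in TKO. The groups overlapped, at 774 ± 173 and 715 ± 93.7 (-0.10, SE 0.15, adjusted p = 0.69), and without THC 2 the change was 0.016. Itga3 was at 85.7 ± 14.5 and 89.9 ± 11.6, a change of 0.07 (adjusted p = 0.87).

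Of the collagen-binding subunits, Itga1 fell and Itga2 and Itga11 did not pass. Itga1, a receptor for collagen IV and laminin (chromosome 13, 114953096 to 115101964), was at 434, 616 and 455 in THC and 324, 299.8 and 388 in TKO. Each TKO library was under each THC library, and the means were 502 ± 99.3 and 337 ± 45.7 (-0.56, SE 0.18, adjusted p = 0.032). THC 2, the highest for Itga1, was also the highest for the endothelial and mural marker sums (15409 and 11056), and the part of these cells in the difference was not tested. Without THC 2 the change was -0.42 (adjusted p = 0.14), and without TKO 2 it was -0.44 (adjusted p = 0.14). When batch was left out of the model, adjusted p was 0.052. Itga2 was low, at 15.1 to 20.2 (THC) and 22.6 to 39.6 (TKO), without overlap but with adjusted p = 0.20 (0.77, SE 0.42). Itga11 was at 5.01 to 16.2 and 8.60 to 14.5.

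The subunits Itga4 and Itga9, which bind VCAM-1, tenascin-C and other ligands, did not pass. Itga4 was at 45.1 ± 9.72 and 50.96 ± 10.3, a change of 0.17. Itga9 was at 159 in THC 1 and between 37.4 and 70.9 in the other 5 libraries. It was lower in TKO in February (-1.41) and higher in November (0.44), with a fitted change of -0.17 (SE 0.39, adjusted p = 0.79).

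No beta subunit was called among 7 tested, beside 27.9% of all rows tested. With 7 rows this count does not set the beta subunits apart. Itgb8, which pairs with alpha v and activates TGF-beta (chromosome 12, 119158022 to 119238802), was at 2240.3, 1169 and 1054 in THC and 1631, 1579.8 and 1941 in TKO. As for Itgav, THC 1 was the highest and THC 2 and 3 were the lowest libraries. From 1488 ± 654 to 1717 ± 196 the change was 0.285 (SE 0.20, adjusted p = 0.32), made of -0.46 in February and 0.66 in November. In the November libraries alone Itgb8 was higher (0.66, adjusted p = 0.012), and likewise when THC 1 (0.013) or TKO 1 (0.012) was left out, where only November sets the difference. Itgb5, another partner of alpha v, was at 1894 ± 494 and 2089 ± 474, a change of 0.15 (adjusted p = 0.52) that became -0.022 without THC 3. Itgb4, the partner of alpha 6 in epithelia, was at 142 ± 14.3 and 158 ± 58.4 (0.09, adjusted p = 0.82).

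The leukocyte subunit Itgb2 differed strongly between batches. February had 76.2 (THC 1) and 146 (TKO 1), and November had 14.2 and 4.04 (THC 2 and 3) and 15.0 and 23.2 (TKO 2 and 3). The sums of the 16 microglia and macrophage markers followed the same order of batches, with 7519.7 and 11874 in February and 1309.8 to 3022 in November, and their part in the level of Itgb2 was not tested. The genotype change was 1.09 (SE 0.47, adjusted p = 0.11), and it passed without THC 2 (1.52, adjusted p = 0.034). Its partners were low: Itgal was at most 7.81 in all libraries, and Itgam, outside the name pattern, was at 8.62 ± 8.16 and 25.3 ± 24.0 (1.26, adjusted p = 0.13). Itgae, the partner of beta 7, was also outside the pattern and rose from 19.98 ± 8.51 to 55.8 ± 8.89 (1.515, SE 0.40, adjusted p = 0.014). Itgb7 itself was at 10.1 to 17.9 in THC and 3.22 to 7.73 in TKO, and its change of -1.15 (SE 0.58) did not pass (adjusted p = 0.17). Of 9 lymphoid markers, 8 stayed under 10 in every library, and Cd3d, Cd3e, Cd3g and Cd8a had no reads. Itgb3 was at 24.8 ± 7.08 and 18.3 ± 11.7 (-0.67, SE 0.55).

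Type I cadherins, the group of E- and N-cadherin, showed no called change in 3 tested members. These are too few to set against the 27.9% of all rows tested that were called. Beside Cdh2, Cdh4, which encodes R-cadherin (chromosome 2, 179442431 to 179899373), was at 704, 496 and 525 in THC and 796, 616 and 683 in TKO. TKO was the higher one in each batch, and the change from 575 ± 112 to 698 ± 91.3, 0.29 (SE 0.13, adjusted p = 0.13) did not pass. Cdh15 was at 11.1 ± 3.07 and 12.4 ± 8.10. Cdh1, E-cadherin, stayed at or under 9.44 and was not tested. Cdh3, P-cadherin, had no reads in THC and 8.78, 1.07 and 0.966 in TKO, and was not tested either.

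Type II cadherins held 4 of the 5 cadherin calls, 1 higher and 3 lower among 10 tested, or 10.0% and 30.0%, beside 14.3% and 13.6% of all rows tested. They are 10 of the 16 tested cadherins, and with 10 rows these counts do not set them apart. Cdh19, known from the Schwann cell lineage (chromosome 1, 110888326 to 110977584), had the smallest adjusted p of all members. It was at 667, 432 and 333 in THC and 221, 160.1 and 143 in TKO. The groups were well apart and each batch showed the fall. The change was -1.41 (SE 0.18, adjusted p = 0.00012), with means of 477 ± 171 and 175 ± 40.8 (SD, n = 3), and it passed under every alternative setting run. The oligodendrocyte marker sum stood lower in the same TKO libraries (17574 to 28893 against 96861 to 104823). In THC 1 to 3 that sum was 104823, 96861 and 99307. The quiescent stem cell and astrocyte sum was 491916, 439726 and 312464 there, the library order of Cdh19. In TKO it was 275447 to 340419.5, which overlaps THC. A few abundant genes carry this sum, and of its 15 markers 8 were lower and 1 was higher. The oligodendrocyte progenitor sum was 15129.7, 5998 and 5316 in THC 1 to 3 and 10661, 8103 and 7957 in TKO 1 to 3. The part of these cells in the fall of Cdh19 was not tested.

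Cdh10 and Cdh11 fell less. Cdh10 (chromosome 15, 18818947 to 19014236), a cadherin of the nervous system, was at 1474, 935 and 666 in THC and 697, 538 and 591 in TKO. THC 3 lay below TKO 1, so the groups overlapped. The means were 1025 ± 412 and 609 ± 80.7, and the change was -0.68 (SE 0.17, adjusted p = 0.011). February gave -1.08 and November alone -0.48 (adjusted p = 0.087). Leaving out the batch term (adjusted p = 0.075), THC 1 (0.089) or TKO 1 (0.083) also ended the call. Cdh11, also called OB-cadherin and known from mesenchyme and brain (chromosome 8, 102632095 to 102785642), was at 2181, 1289 and 1104 in THC and 1351, 826 and 1007 in TKO. Here TKO 1 exceeded both November THC libraries. From 1525 ± 576 to 1062 ± 266 the change was -0.49 (SE 0.14, adjusted p = 0.019). That call ended when the batch term was dropped (adjusted p = 0.20), in November alone (-0.39, 0.13) and without THC 1 (-0.39, 0.13), THC 2 (-0.45, 0.061), TKO 1 (-0.39, 0.12) or TKO 2 (-0.435, 0.082). THC 1, the highest library for both genes, was also the highest for the sums of astrocyte (491916) and oligodendrocyte progenitor markers (15129.7), and their part was not tested.

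Cdh24 moved the other way. This type II cadherin (chromosome 14, 54631231 to 54641364), which binds catenins, was at 70.2, 59.5 and 84.8 in THC and 190.3, 179 and 199.9 in TKO. The lowest TKO library stood far above the highest THC library. The rise was 1.41 (SE 0.24, adjusted p = 0.00098), or 2.66-fold, from 71.5 ± 12.7 to 189.9 ± 10.2 (SD, n = 3), and was 1.43 in February and 1.40 in November. It passed under every alternative setting run. The other type II members did not pass. Cdh6 was at 230.2 ± 102 and 285 ± 63.2 (0.38, -0.21 in February and 0.67 in November), Cdh7 at 66.4 ± 16.8 and 92.8 ± 24.5 (0.48), and Cdh20 at 226 ± 56.0 and 218 ± 36.8 (-0.04). Cdh22 was at 46.4 ± 12.3 and 33.1 ± 17.9 (-0.56), Cdh8 at 53.9 ± 18.7 and 47.3 ± 8.22 (-0.14), and Cdh12 at 16.8 ± 8.74 and 22.2 ± 17.4 (0.21).

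Outside these types, Cdh26 had the largest fall of the tested members. It encodes a cadherin-like protein of epithelia (chromosome 2, 178430531 to 178487366). Its levels were 67.2, 226 and 240.4 in THC and 37.1, 27.9 and 24.1 in TKO. All TKO libraries were below all THC libraries, but THC 1 was far below the other THC libraries. From 178 ± 96.0 to 29.7 ± 6.65 the change was -2.36 (SE 0.41, adjusted p = 0.0012). It was -0.84 in February and -3.12 in November, hence -3.12 also when THC 1 or TKO 1 was left out, and it passed under every alternative setting run. The summed level of 10 ependymal markers was also lowest in THC 1 (5025) among the THC libraries (15996 in THC 2 and 13998 in THC 3). In TKO these sums were 7689, 6190.3 and 8119, above THC 1, and Cdh26 was lower there than in THC 1. The 10 markers did not move as one. Of them 3 were lower (Tmem212 by -1.32, Rarres2 by -1.02 and Ccdc153 by -0.87), 1 was higher (Ccdc39 by 0.61) and 6 were not called. The part of ependymal cells in the change was not tested. Cdh13, T-cadherin, which lacks a cytoplasmic tail and is held by a lipid anchor (chromosome 8, 118283733 to 119324921), was at 591, 370.2 and 273 in THC and 393, 348 and 391 in TKO. THC 1 was the highest and THC 3 the lowest, with means of 411 ± 163 and 378 ± 25.4 (-0.05, SE 0.20, adjusted p = 0.88), and the sign differed between February (-0.59) and November (0.22). Cdh23, a tip-link cadherin of hair cells, was at 16.2 ± 7.78 and 11.3 ± 3.57 (-0.43).

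Of the 3 binding-protein rows, Itgb3bp rose. Its product, named after an interaction with the beta 3 tail, is also CENP-R, a protein of the centromere. Itgb3bp (chromosome 4, 99765402 to 99929813) was at 289, 348 and 421 in THC and 623, 889 and 725 in TKO. The groups were clearly apart, and from 353 ± 66.3 to 746 ± 134 the rise was 1.08 (SE 0.15, adjusted p = 0.00024). By batch it was 1.11 (February) and 1.07 (November). It passed under every alternative setting run. In the same libraries Itgb3, whose product it is named for, was at most 32.1. Of the exonic bases of Itgb3bp, 8.59% are shared with the antisense gene Pgm1, so reads there are uncertain. Itgb1bp1, which encodes ICAP-1, an adaptor that binds the beta 1 tail, was at 546, 577 and 597 in THC and 514, 535 and 476 in TKO. All TKO values lay below the THC values, yet the change was small (-0.17, SE 0.14, adjusted p = 0.39). Itgb1bp2, melusin of muscle, was at 32.4 ± 4.82 and 33.3 ± 20.2.

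**Figure D3:**
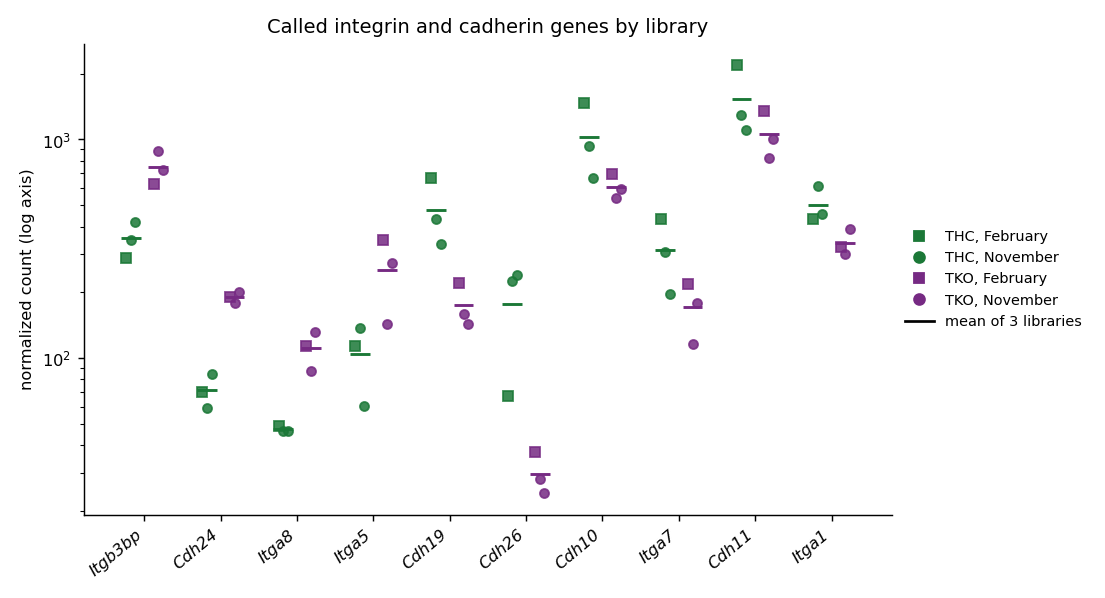
Normalized count (y axis, log) of the 10 called members in each library; green is THC, purple is TKO, squares are the February and circles the November libraries, and bars are means of 3 libraries. Cdh10, Itga7 and Cdh11 overlap between genotypes, and the other 7 do not.

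Promoters are shown for 3 members that rose and for Cdh26, to set genes that moved in opposite directions side by side. The RefSeq promoter table (GRCm38.p6) held 7 of the 10 called members and 32 of the 48 rows. Each sequence below is 250 bases upstream of the start that RefSeq gives (for Itgb3bp inside the longer GENCODE gene), read 5′ to 3′ on the gene's strand, and capitals mark GC boxes (GGGCGG on either strand). They are Itgb3bp (chr4:99829159-99829408, minus strand), Cdh24 (chr14:54641365-54641614, minus), Itga5 (chr15:103366792-103367041, minus) and Cdh26 (chr2:178430265-178430514, plus).
Itgb3bp: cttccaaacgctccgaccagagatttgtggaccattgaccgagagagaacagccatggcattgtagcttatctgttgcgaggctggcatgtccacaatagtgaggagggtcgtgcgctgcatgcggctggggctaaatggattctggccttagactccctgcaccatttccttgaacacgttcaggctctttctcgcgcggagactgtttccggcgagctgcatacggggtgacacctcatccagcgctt
Cdh24: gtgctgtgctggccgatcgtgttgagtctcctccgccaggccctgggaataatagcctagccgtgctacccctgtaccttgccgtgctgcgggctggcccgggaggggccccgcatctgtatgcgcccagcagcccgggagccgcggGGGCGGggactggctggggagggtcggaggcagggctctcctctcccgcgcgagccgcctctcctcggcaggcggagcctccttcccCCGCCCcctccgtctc
Itga5: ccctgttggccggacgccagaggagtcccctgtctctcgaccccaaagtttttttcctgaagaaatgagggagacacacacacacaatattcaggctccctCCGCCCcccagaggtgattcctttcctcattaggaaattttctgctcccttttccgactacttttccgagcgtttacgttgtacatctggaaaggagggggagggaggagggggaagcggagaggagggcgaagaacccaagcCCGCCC
Cdh26: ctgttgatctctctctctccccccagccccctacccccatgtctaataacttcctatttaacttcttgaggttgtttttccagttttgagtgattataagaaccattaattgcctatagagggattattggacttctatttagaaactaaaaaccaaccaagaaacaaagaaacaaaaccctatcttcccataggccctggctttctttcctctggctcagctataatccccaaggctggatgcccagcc

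GC boxes were found in 2 of the 4 promoters of higher members (Cdh24 and Itga5, each with 2) and in none of 3 promoters of lower members, and 32.7% of 32851 promoters of this length hold one. The GC content of the promoters of higher members was 72.8% (Cdh24), 56.4% (Itga8) and 55.6% (Itgb3bp and Itga5), and that of lower members 57.6% (Itga1), 42.8% (Cdh26) and 36.8% (Cdh10), so the groups overlapped. The median over all promoters was 52.4%. E2F factors, which the Rb family restrains, have a known motif that was searched as TTTGGCGC, TTTCCCGC, TTTGCCGC and TTTCGCGC on both strands. None of the 7 promoters of called members held it, and 1.86% of all promoters did. The CHR element of cell-cycle genes, searched as TTTGAA on both strands, was in the promoter of Itga1 alone among the 7, and in 16.0% of all promoters. These are matches of letters in this window only.

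The batches differed for a number of members. Both February libraries lay above all 4 November libraries for 9 of the 38 members, or 23.7%, beside 7.39% of all rows tested. They were Cdh2, Cdh4, Cdh11, Cdh13, Itga4, Itgav, Itgb2, Itgb3 and Itgb5. For Cdh7 and Cdh12 both February libraries lay below the November ones, and 6.46% of all rows did so. THC 1 was the highest library for 13 members, or 34.2%, beside 20.5% of all rows. The genotype difference had opposite signs in February and November for 14 of the 38 members, or 36.8%, beside 27.5% of all rows, and for none of the 10 called members. Since a call rests on both batches, that last count is in part built into the calling. Of the 8 oligodendrocyte progenitor markers, the summed level was likewise highest in THC 1 (15129.7) and next in TKO 1 (10661), and 5316 to 8103 in November, and its part in these batch differences was not tested.

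**Figure D4:**
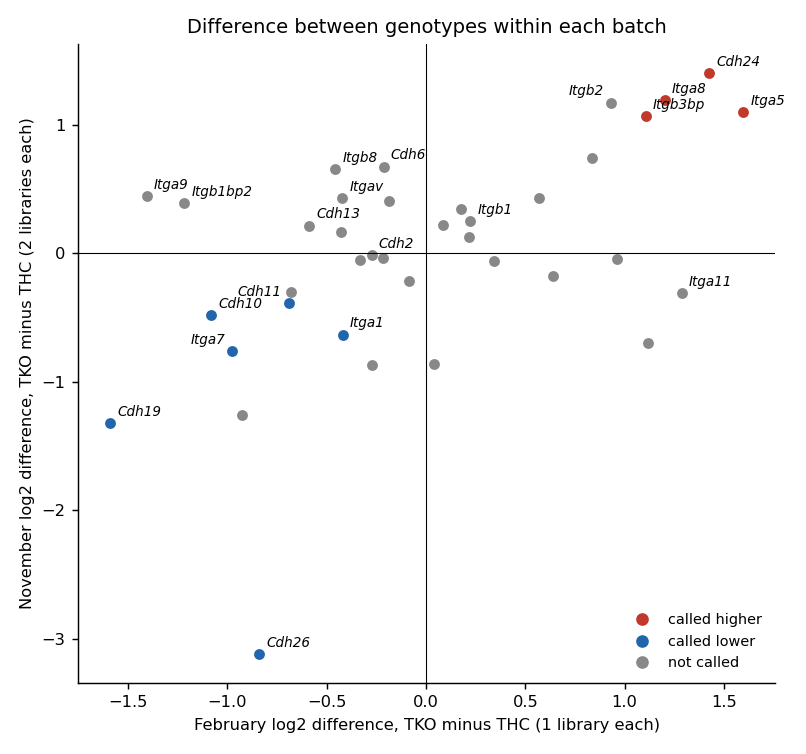
Difference of log2(normalized count + 1) between TKO and THC in February (x axis, 1 library each) and November (y axis, 2 libraries each) for the 38 tested members. The 4 higher members lie in the upper right and the 6 lower members in the lower left, while Itgav, Itgb8, Cdh13 and Itga9 are lower in February and higher in November.

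The other genes of the 2 adhesion systems moved in both directions. A list of integrin ligands also holds Lrrc32 and Nrros, whose products hold latent TGF-beta, and both of these fell. Of its 34 tested genes, 11 rose and 9 fell, or 32.4% and 26.5%, beside 14.3% and 13.6% of all rows tested. The median change was -0.05. Thbs1, thrombospondin 1, rose from 65.2 ± 11.5 to 575 ± 352 (2.97, SE 0.32), and Tnc, tenascin-C, a ligand of alpha 9 and alpha v integrins, from 602 ± 99.5 to 1536 ± 546 (1.30, SE 0.15). Vtn, vitronectin, which alpha v integrins bind, fell from 5474 ± 1314 to 2004 ± 560.0 (-1.47, SE 0.22), and Lrrc32, which holds latent TGF-beta at the cell surface, from 121 ± 57.4 to 24.8 ± 8.60 (-2.18, SE 0.41). Fn1, the ligand of the Itga5 receptor, rose from 650.0 ± 238 to 952 ± 77.6 (0.605, SE 0.20, adjusted p = 0.045), with overlapping groups. Npnt, nephronectin, a ligand of the Itga8 receptor, was at 184 ± 48.0 and 251 ± 21.1 (0.475, adjusted p = 0.13). Icam2 (-1.47) and Egfl7 (-1.285), genes of vessel cells, fell too. Vtn (6976), Lrrc32 (183), Icam2 (305.03) and Egfl7 (559) were each highest in THC 2, as were the endothelial and mural marker sums (15409 and 11056), which were lower in all TKO libraries than in all THC libraries. The part of vessel cells in these falls was not tested.

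Among 35 tested integrin adaptors and kinases, 5 rose and 5 fell, or 14.3% each, which is near the shares of all rows (14.3% and 13.6%). The median was 0.07, and the list also holds Itgb1bp1. Zyx, zyxin, rose from 570 ± 91.8 to 1030.4 ± 174 (0.85, SE 0.16, adjusted p = 0.0016), and Actn1, alpha-actinin 1, from 125 ± 41.3 to 238 ± 40.8 (0.97, SE 0.26). Fermt2, kindlin 2, which activates integrins by binding the beta tail, fell from 4074 ± 904 to 2727 ± 345 (-0.56, SE 0.13, adjusted p = 0.0071), and Vcl, vinculin, from 592 ± 201 to 387 ± 106 (-0.59, SE 0.16). Ptk2, focal adhesion kinase, fell by 0.36 (adjusted p = 0.036). Its relative Ptk2b rose from 25.8 ± 22.1 to 86.5 ± 21.5 (2.29, SE 0.69, adjusted p = 0.027). The talin genes Tln1 (0.01) and Tln2 (0.07) did not pass. Ilk, integrin-linked kinase, was under the filter in this table (5.89 ± 0.788 and 2.34 ± 0.524).

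Of 23 tested catenin and adherens junction genes, 4 rose and 4 fell (median 0.01), or 17.4% each, beside 14.3% and 13.6% of all rows. Plekha7, which binds p120-catenin, rose from 252 ± 39.5 to 651 ± 165 (1.34, SE 0.19, adjusted p = 0.00025), and Pkp4, a p120-catenin relative, from 490.2 ± 93.1 to 865 ± 134 (0.83, SE 0.13). Ctnna2, neuronal alpha-catenin, fell from 2556 ± 204 to 1779 ± 328 (-0.54, SE 0.13), and Jup, plakoglobin, from 489 ± 54.8 to 315 ± 107 (-0.68, SE 0.17). Ctnnb1, beta-catenin, was at 8692 ± 853 and 11270.1 ± 674 (0.38, adjusted p = 0.072). Of 29 tested genes of other cadherin superfamily branches, 3 rose and 5 fell (median -0.06), or 10.3% and 17.2%, near the same background of 14.3% and 13.6%. Fat1, an atypical cadherin, rose from 693 ± 83.6 to 1714 ± 209 (1.30, SE 0.14), and Pcdh19 from 172 ± 62.5 to 319 ± 38.0 (0.94, SE 0.23). Dchs1, which pairs with Fat4 between cells, fell from 912 ± 64.3 to 568 ± 89.5 (-0.69, SE 0.15), and Clstn1, calsyntenin 1, from 2732 ± 502 to 1883 ± 36.6 (-0.52, SE 0.14).

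**Figure D5:**
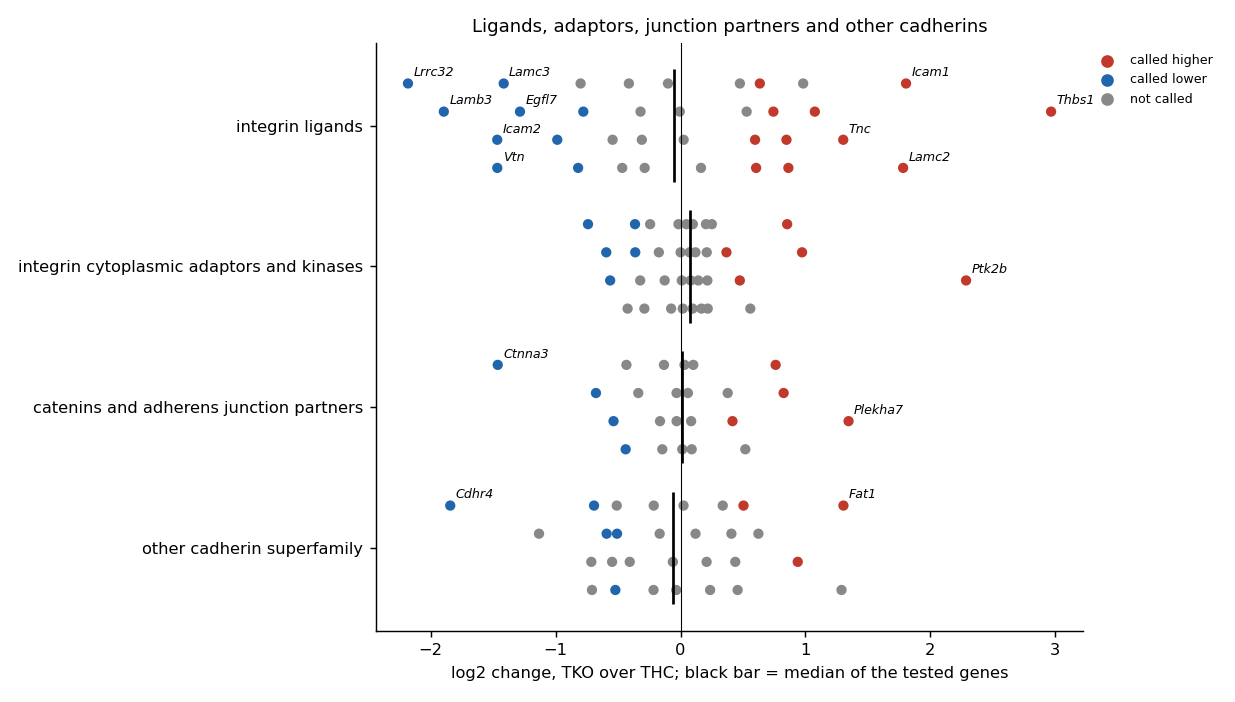
Log2 change in TKO over THC (x axis) for each tested gene of 4 lists. They are integrin ligands with Lrrc32 and Nrros (34), adaptors and kinases (35), junction partners (23) and other cadherins (29). Points are staggered in height only to keep them apart, and black bars are medians. All 4 medians lie near 0, with called genes on both sides.

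The remaining 10 rows fell under the filter. Itgb6 had no reads in any library, and Itgb2l and Cdh16 were at most 6.61 and 1.07. Itgal, Cdh1, Cdh3 and Cdh9 stayed under 10 in all libraries. Itga10 (at most 20.2), Cdh17 (at most 20.4) and Cdh18 (at most 16.2) passed 10 in fewer than 3 libraries. Differences in these rows were not tested.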

How the data were processed

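RNA-seq libraries of sorted cells were made with the SMART-Seq v4 and Nextera XT kits, per the labels' protocols, which do not keep the strand. HISAT2, featureCounts, Subread and DESeq2 and the build GRCm38 are named in the submitters' processing notes. The sources used here give no versions and no annotation for these steps. The authors deposited a normalized count per gene and library, a signal scaled by 1 factor per library. Beside it stand the authors' log2 fold change, its SE, their Wald score and weighting score, and their raw and adjusted p-value, per the file headers. The values of each column lie within 0.001 of whole multiples of 1 step, and dividing by it gave the read totals. In THC 1 and THC 3 the step is within 1% of 1, and whole reads could not be checked independently there, so totals are recovered values and not stated depths. No sample column was left unmapped.

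The plan foresaw a count test for counts and limma for normalized values. The values are normalized, so limma 3.58.1 (R 4.3.3) was fitted on log2(value + 1) with an intensity trend, batch and genotype, to rows at 10 or more in 3 or more libraries, and p-values were Benjamini-Hochberg adjusted over 17278 rows. Count tests on recovered reads were planned and not run. The fit was also run on simulated data with the same spread setting for all genes and no batch difference. These libraries differ from that setting, so the run does not check the calls made here. Exon lengths and coordinates are from GENCODE M21 (GRCm38), where all 48 rows matched by identifier. Every called member and 8 members chosen for their role (Itga6, Itgb1, Itgb8, Itgav, Cdh2, Cdh1, Cdh4 and Cdh13) are given by library; Cdh1 was under the filter. From each other list the 2 called genes with the smallest adjusted p in each direction are named, and further genes were picked after their values were seen. Members and lists were chosen with earlier results of these data known. Libraries are pools of mice that the series calls biological replicates.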

Additional observations from a re-analysis of the deposited data

How the results depend on the processing

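Among the 38 tested members, 4 were higher and 6 were lower in TKO. Both counts stood, with the same genes, under pseudocounts of 0.5 and 5, with no filter, with a filter at 50, with scaling by an unweighted trimmed mean of M-values, and by the log2 fold changes and adjusted p in the authors' deposited table, a comparison added after seeing the data. With no batch term 4 were higher and 2 were lower (Cdh19 and Cdh26). In the November samples alone 4 were higher, with Itgb8 in place of Itga5, and 3 were lower. Leaving out 1 library in turn gave 2 to 5 higher and 3 to 6 lower members. Cdh19, Cdh24, Cdh26 and Itgb3bp kept their call in all 15 alternatives. With the replicate number as a block in place of batch, 4 were higher and 5 were lower, without Itga1 (-0.56, adjusted p = 0.057). Whether the numbers pair the libraries cannot be told from these values. Deviations of same-numbered libraries from their group means correlated at 0.23, -0.11 and 0.14 across genes for numbers 1, 2 and 3. Not every library correlated best with its own number, and number 1 is also the February batch.

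Of 561 values of single members under alternatives, 498 kept direction and side of the threshold, 25 lost and 4 gained a call, and 34 changed sign, none of them in a called member. In November alone the sign changed for Itga2b (-0.042), Itga9 (0.44), Itga11 (-0.31), Itgb4 (-0.18), Itgb1bp2 (0.39), Itga3 (-0.061), Cdh13 (0.22) and Cdh20 (0.16), and Cdh15 was at 0.11 in the authors' deposited table. With 1 library left out, log2 changes ran from -0.022 to 0.35 for Itgb5, -0.042 to 0.75 for Itga2b, -0.24 to 0.016 for Itga6, -0.51 to 0.44 for Itga9, -0.44 to 0.10 for Cdh8, -0.20 to 0.50 for Cdh12, -0.31 to 0.57 for Itga11, -0.18 to 0.26 for Itgb4, -0.51 to 0.39 for Itgb1bp2, -0.061 to 0.22 for Itga3, -0.25 to 0.22 for Cdh13, -0.23 to 0.16 for Cdh20 and -0.70 to 0.64 for Cdh15. The cause of these changes was not tested. The planned edgeR and DESeq2 fits on recovered reads were not run. With 3 libraries a genotype, the SE of the log2 change ran from 0.13 to 0.65 over the tested members. The smallest called change was 3.21 SE in size (Itga1), and the largest that did not pass was 2.31 SE (Itgb2).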
